A study of Homo sapiens with 3 samples.

Results

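The YTH domain genes YTHDF1, YTHDF2, YTHDF3, YTHDC1 and YTHDC2 were described in untreated HEK293T cells. These 5 genes are the human genes for proteins with a YTH domain, chosen by name, and they stood among 35880 gene symbols in the deposited transcript table. Their levels were obtained by summing TPM, the abundance of a transcript per length as scaled within its library, over the transcript entries of each symbol. HEK293T is a line of human embryonic kidney origin into which the SV40 large T antigen was introduced. The data came from 1 group of 3 RNA-seq libraries, called replicates 1, 2 and 3, which the series presents as a biological triplicate. The cells were grown in high-glucose DMEM with 10% FBS, harvested at 70% confluence and given no treatment. Total RNA was extracted with Trizol, poly(A) RNA was captured on oligo-dT, and directional libraries were made. There was no second condition, so each comparison is between genes, between transcripts, or between a gene and a fixed level. The labels do not say whether the libraries came from separate cultures, so the p-values measure only how far these 3 libraries differ, and that spread may be technical.

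N6-methyladenosine, or m6A, is a methyl mark placed on adenosines of messenger RNA in the nucleus by a methyltransferase complex built around METTL3 and METTL14. The YTH domain binds RNA through a pocket lined with aromatic residues that holds the methylated base, and proteins with this domain are called readers of the mark. YTHDF1, YTHDF2 and YTHDF3 are close paralogs found in the cytoplasm, YTHDC1 is found in the nucleus, and YTHDC2 is a large protein that also carries helicase domains.

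Short alternative exons and the joins that skip them are among the sequences in which the leading coding transcripts of YTHDC1 and YTHDF2 differ. They are shown because they change the coding sequence. The same transcripts also differ at their annotated 5′ ends. All were read from hg38 at the exons of GENCODE release 29, in the sense of the transcript. Where the name gives an exon or an exon extension, the capitals mark it between 15 bases of sequence spliced to each side. Where the name gives a join, the capitals mark the last base of one exon and the first base of the next.
YTHDC1 exon of transcripts 207 and 201, chr4:68332794-68332847, minus strand: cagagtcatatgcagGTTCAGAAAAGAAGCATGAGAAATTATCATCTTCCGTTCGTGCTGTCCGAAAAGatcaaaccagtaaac
YTHDC1 join in transcript 202 that skips this exon: cagagtcatatgcaGAtcaaaccagtaaac
YTHDC1 exon extension of transcript 207, chr4:68318730-68318753, minus strand: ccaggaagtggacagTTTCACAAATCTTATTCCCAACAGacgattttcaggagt
YTHDC1 join in transcript 202 without the extension: ccaggaagtggacaGAcgattttcaggagt
YTHDF2 second exon of transcript 201, chr1:28737658-28737682, plus strand: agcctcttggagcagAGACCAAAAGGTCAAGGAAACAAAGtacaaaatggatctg
YTHDF2 join in transcript 208 that skips this exon: agcctcttggagcaGTacaaaatggatctg

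YTHDF2 was the highest of the 5 genes and YTHDC1 the second. YTHDF1 and YTHDF3 followed at levels that were not told apart, and YTHDC2 was the lowest. Each of the 5 genes was well above 1 TPM, and the lowest of them stood at 30.9 TPM. Over the 21990 genes with a value above 0 in at least 1 library, the median was 4.29 TPM. The other 13890 symbols were listed at 0 in all 3 libraries.

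YTHDF2, the reader best known for recruiting the CCR4-NOT deadenylase to methylated transcripts, lies on the plus strand at chr1:28736621-28769775. It was measured at 107 TPM in replicate 1, 112 TPM in replicate 2 and 110.1 TPM in replicate 3, a mean of 110 ± 2.44 TPM (SD, n = 3). These values sat close together and above those of every other YTH gene in all 3 libraries.

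YTHDC1, the nuclear reader known for roles in splicing and in the export of methylated RNA, lies on the minus strand at chr4:68310387-68350089. Its level was 85.6 TPM in replicate 1, 81.8 TPM in replicate 2 and 85.4 TPM in replicate 3, a mean of 84.3 ± 2.10 TPM (SD, n = 3). Replicate 2 was the lowest of the 3, by less than the gap to any other YTH gene.

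YTHDF1, a cytoplasmic reader studied for its effect on translation, lies on the minus strand at chr20:63195429-63216234. Its level was 40.4 TPM in replicate 1, 38.0 TPM in replicate 2 and 39.9 TPM in replicate 3, a mean of 39.4 ± 1.27 TPM (SD, n = 3). YTHDF3, the other cytoplasmic paralog, lies on the plus strand at chr8:63168553-63212786. It reached 38.1 TPM in replicate 1, 40.2 TPM in replicate 2 and 36.3 TPM in replicate 3, a mean of 38.2 ± 1.95 TPM (SD, n = 3). The values of these paralogs overlapped, and YTHDF3 was above YTHDF1 in replicate 2 but below it in replicates 1 and 3.

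YTHDC2, known in mouse for its need in meiotic germ cells, lies on the plus strand at chr5:113513683-113595285. It gave 31.1 TPM in replicate 1, 31.1 TPM in replicate 2 and 30.7 TPM in replicate 3, a mean of 30.9 ± 0.254 TPM (SD, n = 3). Its 3 values were below those of the other 4 genes in every library.

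**Figure D1:**
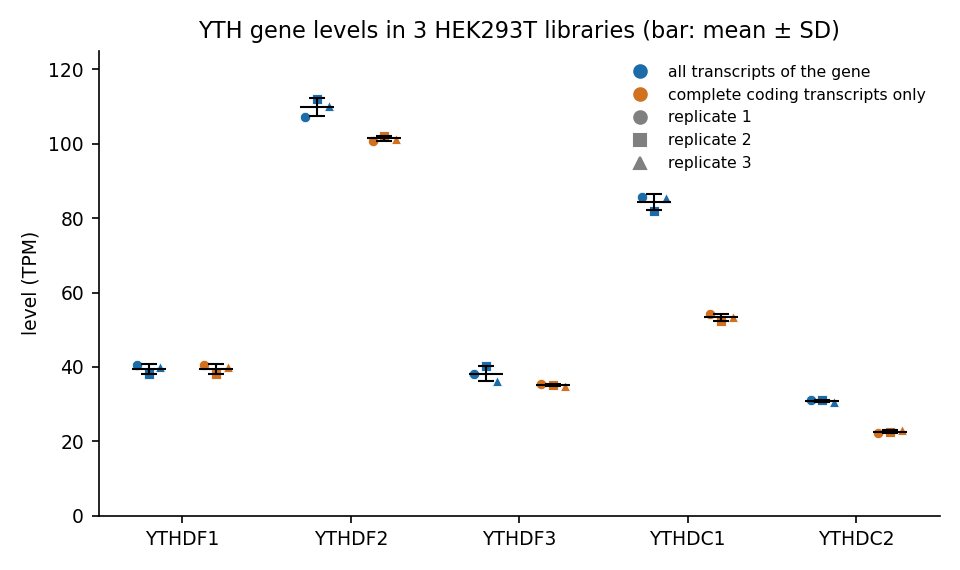
Level of each YTH gene in TPM (vertical axis) in replicates 1, 2 and 3, summed over all transcripts of the gene (blue) or over transcripts with a complete annotated coding sequence (orange). Horizontal bars are means and whiskers 1 SD of 3 libraries; YTHDF2 is highest on both sums, and YTHDC1 moves to 53.3 TPM on the orange sum, against 84.3 TPM on the blue one.

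All 5 genes passed the test for a level above 1 TPM (limma moderated test of log2(TPM + 0.01), Benjamini-Hochberg adjusted over 21990 genes). Of all genes tested, 58.5% were above 1 TPM by the same rule and 33.9% were below it, so a call above 1 TPM is the common outcome for a gene in these libraries. The log2 level against 1 TPM was 6.76 for YTHDF2 (SE 0.0185, limma adjusted p = 2.04e-09) and 6.38 for YTHDC1 (SE 0.0204, limma adjusted p = 2.92e-09). It was 5.29 for YTHDF1 (SE 0.0267) and 5.24 for YTHDF3 (SE 0.0351). YTHDC2 had a log2 level of 4.94 (SE 0.0215, limma adjusted p = 6.55e-09). Ranked by mean TPM among all 35880 symbols, YTHDF2 came 1448th, YTHDC1 1992nd, YTHDF1 4210th, YTHDF3 4340th and YTHDC2 5127th.

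The 5 genes together summed to 302.3 TPM in replicate 1, 303.2 TPM in replicate 2 and 302.4 TPM in replicate 3. YTHDF2 made up 36.3 ± 0.755% of this sum (SD, n = 3) and YTHDC1 27.8 ± 0.739%. YTHDF1 held 13.0 ± 0.442%, YTHDF3 12.6 ± 0.626% and YTHDC2 10.2 ± 0.0760%. The 3 cytoplasmic YTHDF genes summed to 187 ± 2.46 TPM and the 2 YTHDC genes to 115 ± 1.96 TPM (SD, n = 3). With all entries summed, the YTHDF genes thus held 61.9 ± 0.709% of the total (SD, n = 3). This split depended on the entries summed. On complete coding transcripts each YTHDF share was higher, at 15.7% for YTHDF1, 40.3% for YTHDF2 and 13.9% for YTHDF3. The shares of YTHDC1 and YTHDC2 were lower, at 21.2% and 8.98%.

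The spread between libraries differed among the genes. Summed over all entries, the coefficient of variation was 0.821% for YTHDC2, 2.22% for YTHDF2, 2.49% for YTHDC1, 3.22% for YTHDF1 and 5.10% for YTHDF3. On this sum the median over 13475 genes with a mean of at least 1 TPM was 4.54%, and 4.34% of those genes had a lower coefficient than YTHDC2. On complete coding transcripts it was 2.28% for YTHDC2, 0.723% for YTHDF2, 1.92% for YTHDC1, 3.22% for YTHDF1 and 0.927% for YTHDF3. The order of the genes thus depended on the entries summed. With 3 libraries a single coefficient is imprecise, and these values were not tested against each other.

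Pairs of YTH genes were compared within each library, as the log2 value of one gene minus that of the other. For this, limma was fitted over all genes against YTHDF2, YTHDF3, YTHDC1 and YTHDC2 in turn. Of the 10 pairs, 9 differed at an adjusted p under 0.05. This share has to be read against a high background. Of 21989 other genes, 99.2% differed from YTHDF2, 96.8% from YTHDF3, 98.8% from YTHDC1 and 97.6% from YTHDC2 by the same rule, in either direction. The size of each difference therefore says more than its call. All differences in a fit share the values of its reference gene, so they are not independent. Their p-values also depended on the fit. For YTHDF2 minus YTHDF3 the limma adjusted p was 0.000439 without the mean-variance trend. With only genes of a mean of at least 1 TPM it was 7.24e-135, at an unchanged difference.

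YTHDF2 exceeded each of its paralogs by a wide margin. Against YTHDF3 the log2 difference was 1.52 (SE 0.0485, 95% interval 1.41 to 1.64, limma adjusted p = 3.61e-08), which is 2.88-fold. The YTHDF1 minus YTHDF2 difference was -1.48 (SE 0.0387, 95% interval -1.58 to -1.38, limma adjusted p = 3.86e-07), so YTHDF1 stood at 0.359 of the YTHDF2 level. YTHDF2 was higher in all 3 libraries in both comparisons. YTHDF1 and YTHDF3 were not told apart: their log2 difference was 0.05 (SE 0.0595, limma adjusted p = 0.461), and its 95% interval ran from -0.09 to 0.19.

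YTHDC1 stood below YTHDF2 and above the other 3 genes. YTHDF2 minus YTHDC1 was 0.38 on the log2 scale (SE 0.0320, 95% interval 0.30 to 0.46, limma adjusted p = 7.99e-05), at 1.30-fold. On this sum it was the smallest margin of YTHDF2 over any YTH gene. With only the leading transcript of each gene, identical entries summed, the margin over YTHDC1 was 3.12-fold (log2 difference 1.64), and YTHDF1 minus YTHDF2 was the smaller difference in size, at -1.26. Summed over all entries, YTHDF1 minus YTHDC1 was -1.10 (SE 0.0268, limma adjusted p = 4.87e-07), and that of YTHDF3 minus YTHDC1 was -1.14 (SE 0.0469, limma adjusted p = 3.56e-06). Both of these differences reversed or shrank when single transcripts or coding transcripts were compared, as given with the transcripts of YTHDC1.

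Summed over all entries, YTHDC2 was lower than each other gene in all 3 libraries. YTHDF2 minus YTHDC2 was 1.83 (SE 0.0198, 3.55-fold) and YTHDC1 minus YTHDC2 was 1.44 (SE 0.0236, 2.72-fold). The margins of the other paralogs on this sum were 1.27-fold for YTHDF1 (log2 difference 0.35, SE 0.0297, limma adjusted p = 0.000192) and 1.23-fold for YTHDF3 (log2 difference 0.30, SE 0.0323, limma adjusted p = 0.000474). On complete coding transcripts they were 1.74-fold for YTHDF1 and 1.55-fold for YTHDF3. With only the leading transcript of each gene, identical entries summed, YTHDF3 minus YTHDC2 was -0.012 on the log2 scale (limma adjusted p = 0.702), so YTHDF3 and YTHDC2 were not told apart. On that comparison YTHDC1 minus YTHDC2 was 0.32, and it turned to -0.68 when 1 entry of each identical pair was used.

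**Figure D2:**
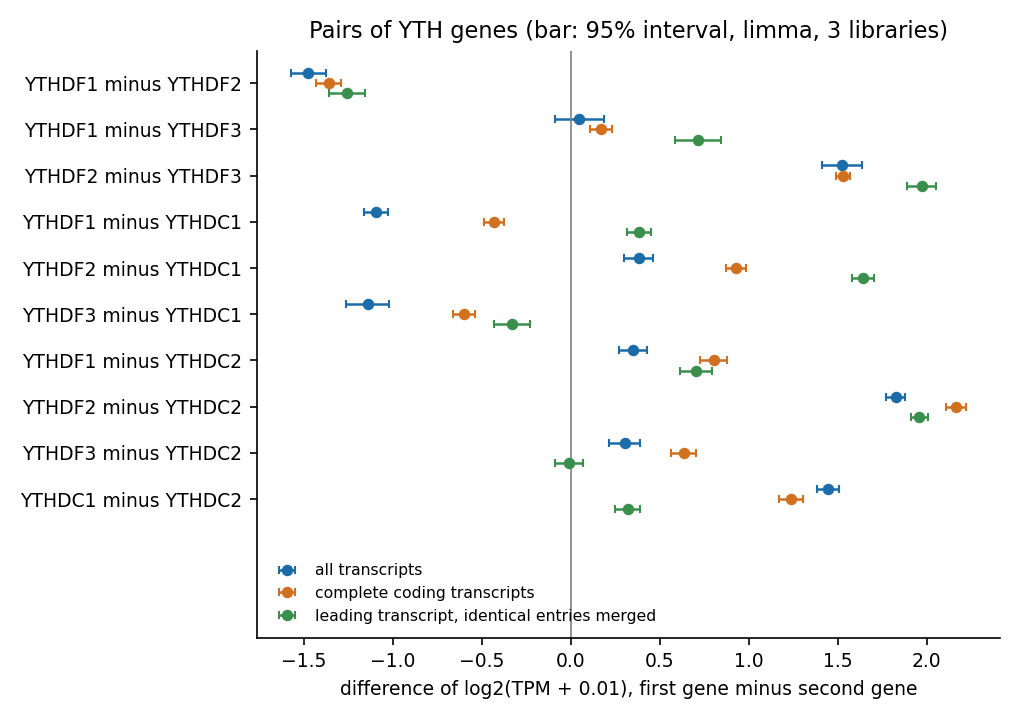
Difference of log2(TPM + 0.01) between the genes of each pair (horizontal axis), first gene minus second, with 95% intervals from limma over 3 libraries. Blue uses all transcripts of a gene, orange complete coding transcripts and green the leading transcript after identical entries were summed; YTHDF1 minus YTHDC1 lies at -1.10, -0.43 and 0.38 on these 3 sums, while YTHDF2 stays above the other 4 genes on all of them.

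The level of a gene in this table is a sum over transcript entries, and the 5 genes differed in how that sum was made up. They had 48 entries in all, of which 40 were above 0 in at least 1 library. At the level of single entries, 20 of these 40 were above 1 TPM and 4 were below it, with the same limma test fitted over 122057 entries. The 40 include 12 YTHDC1 entries that are listed in identical pairs. With identical entries summed, 17 of 34 were above 1 TPM and 4 below it. Of all entries tested, 30.8% were above 1 TPM and 25.1% below it. All 4 entries called below 1 TPM belonged to YTHDF3. Which transcript leads a gene was chosen by its value, so the shares below are a description with no test.

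YTHDF1 was nearly a single transcript. YTHDF1-202, with 5 exons and a coding sequence of 1677 bases, was measured at 37.4, 34.6 and 36.8 TPM in replicates 1, 2 and 3. This was 91.9 ± 0.884% of the gene (SD, n = 3). The only other entry, YTHDF1-201, gave 2.98, 3.45 and 3.11 TPM and skips exon 4 of 1521 bases, which holds most of the coding sequence. Its annotated coding sequence is 156 bases long. The joins that set the transcripts apart share their first exon end and differ from there on, as the capitals show at the last base of exon 3 and the first base of the next exon.
YTHDF1-202, exon 3 to exon 4: ggacagtcaaatcaGAgtaacagttacccc
YTHDF1-201, exon 3 to exon 5: ggacagtcaaatcaGGaacggcagagtcga

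YTHDF2 was also led by 1 transcript. YTHDF2-201, with a coding sequence of 1737 bases, reached 84.8, 86.8 and 88.6 TPM in replicates 1, 2 and 3, which was 79.0 ± 1.51% of the gene (SD, n = 3). YTHDF2-208 was the second, at 11.1, 10.2 and 7.63 TPM and 8.77 ± 1.72% of the gene. It skips the second exon of 25 bases, printed above, and has an annotated coding sequence of 1587 bases. Among the complete coding transcripts of YTHDF2, those with the second exon held 89.0% of the TPM in replicate 1, 90.1% in replicate 2 and 92.5% in replicate 3, a mean of 90.5 ± 1.78% (SD, n = 3). The small exon was thus in most of the YTHDF2 coding transcripts in each library.

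The YTHDF paralogs share this exon layout. The coding parts of the 5 exons were 27, 25, 80, 1521 and 24 bases in YTHDF1-202, against 27, 25, 80, 1584 and 21 bases in YTHDF2-201. In YTHDF3-205 they were 24, 25, 86, 1599 and 21 bases. The second exon of YTHDF1, shown to compare with that of YTHDF2, lies at chr20:63215577-63215601 on the minus strand and matches it at 20 of 25 positions; capitals again mark the exon.
YTHDF1 second exon: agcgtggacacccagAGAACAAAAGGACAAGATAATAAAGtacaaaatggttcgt

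YTHDF3 was spread over more transcripts than its paralogs, and these differ mostly in the length of the 3′ untranslated region. YTHDF3-205, whose 3′ untranslated region is 3080 bases long, gave 21.1, 22.4 and 22.9 TPM in replicates 1, 2 and 3, which was 58.0 ± 4.33% of the gene (SD, n = 3). YTHDF3-215, with 409 bases there, gave 9.49, 6.55 and 6.90 TPM, or 20.1 ± 4.41%. YTHDF3-212, with 249 bases there, gave 4.04, 5.95 and 4.82 TPM, or 12.9 ± 2.11%.

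The last 2 of these transcripts moved in opposite directions in replicate 1, where YTHDF3-215 was highest and YTHDF3-212 lowest. Short entries of YTHDF3 were unsteady too. The retained-intron entry YTHDF3-203 gave 2.25, 1.41 and 0.455 TPM, and YTHDF3-204, of the same class, was listed at 0 in replicates 1 and 3 and at 2.93 TPM in replicate 2. When only complete coding transcripts were summed, the mean of YTHDF3 was 35.1 ± 0.325 TPM (SD, n = 3), against an SD of 1.95 TPM with all its entries. On that sum YTHDF1 was above YTHDF3 in all 3 libraries, by 0.17 on the log2 scale (SE 0.0255, limma adjusted p = 0.000856), or 1.12-fold. The YTHDF1 sum includes YTHDF1-201, whose annotated coding sequence is 156 bases long. YTHDF1-202 alone, at 34.6 TPM in replicate 2, was below the YTHDF3 sum of 35.2 TPM in that library.

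**Figure D3:**
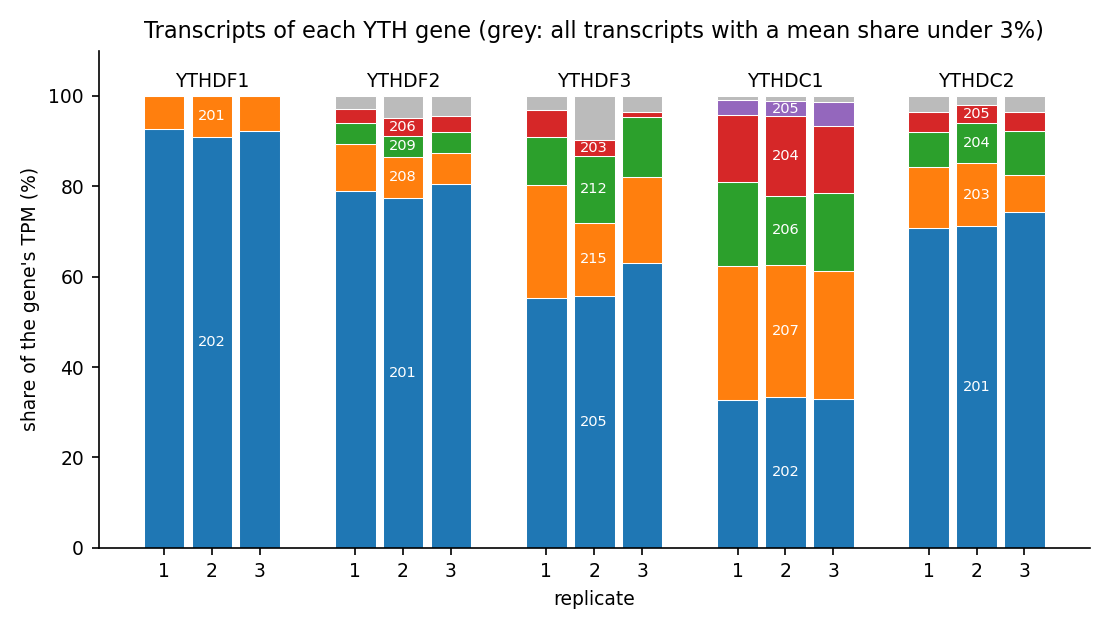
Share of each gene's TPM (vertical axis, %) held by its transcripts in replicates 1, 2 and 3, with identical entries of YTHDC1 summed. Each colour is a transcript, numbered in the middle bar, and grey holds those with a mean share under 3%; the leading transcript holds 91.9% of YTHDF1 and 33.0% of YTHDC1.

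YTHDC1 was listed in a form that bears on its values. Its 14 entries fell into 7 pairs, and the entries of a pair had the same length and the same TPM in every library. Only 1 identifier of each pair is on the primary chromosomes of GENCODE release 29. Over the whole table, 10371 of 122057 non-zero entries (8.50%) had such an identical partner, in 993 symbols that held 3.47% of the TPM between those entries. The gene sum for YTHDC1 includes both entries of each pair, and the values below are for the pair summed. Whether the entries of a pair are copies of 1 transcript with its reads split between them was not tested.

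Among the YTH genes, YTHDC1 was the one with nearly equal leading transcripts. YTHDC1-202, with 16 exons and a coding sequence of 2127 bases, gave 28.1, 27.3 and 28.0 TPM in replicates 1, 2 and 3, or 33.0 ± 0.304% of the gene (SD, n = 3). YTHDC1-207, with 17 exons and a coding sequence of 2205 bases, gave 25.4, 24.0 and 24.2 TPM, or 29.1 ± 0.655%. The first was higher in each library by a small margin.

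The coding sequences of YTHDC1-202 and YTHDC1-207 differ by the exon of 54 bases and the extension of 24 bases printed above, both of which keep the reading frame. Among the complete coding transcripts, those with the exon held 48.3%, 47.7% and 47.5% of the TPM in replicates 1, 2 and 3, a mean of 47.8 ± 0.417% (SD, n = 3). Those with the extension held 46.8%, 46.0% and 45.4%, a mean of 46.1 ± 0.677%. The exon is also in YTHDC1-201, a transcript with a 3′ untranslated region of 3712 bases that gave 0.816, 0.899 and 1.09 TPM. Because YTHDC1-202 lacks both elements and YTHDC1-207 has both, these shares rest on the same transcripts and are not separate measurements.

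Short entries made up much of the rest of YTHDC1. YTHDC1-206, 515 bases long with an incomplete annotated coding sequence, gave 15.8, 12.4 and 14.8 TPM, or 17.0 ± 1.68% of the gene (SD, n = 3). YTHDC1-204, a retained-intron entry of 581 bases, gave 12.7, 14.4 and 12.7 TPM, or 15.7 ± 1.61%. Both were steady enough between libraries to be called above 1 TPM. In the authors' estimated counts, a column that names no library, YTHDC1-206 held 2.81% and YTHDC1-204 2.73% of the gene, against 49.7% for YTHDC1-202. TPM divides by effective length, so few reads on a short entry give a high TPM.

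The level of YTHDC1 beside the other readers depended on which entries were summed. Complete coding transcripts gave 54.3, 52.2 and 53.4 TPM, a mean of 53.3 ± 1.02 TPM (SD, n = 3), against 84.3 TPM with all entries. On that sum YTHDF2 exceeded YTHDC1 1.90-fold (log2 difference 0.93, SE 0.0228, limma adjusted p = 2.09e-08), and YTHDC1 was still above YTHDF1, YTHDF3 and YTHDC2 in all 3 libraries. When only the leading transcript of each gene was compared, identical entries summed, YTHDF1 minus YTHDC1 turned to 0.38 (limma adjusted p = 0.000144), while YTHDF3 minus YTHDC1 kept its sign at -0.33 (limma adjusted p = 0.00089).

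YTHDC2 was led by YTHDC2-201, which has 30 exons and a coding sequence of 4290 bases. It gave 21.9, 22.1 and 22.8 TPM in replicates 1, 2 and 3, or 72.1 ± 2.01% of the gene (SD, n = 3). The second entry, YTHDC2-203, is annotated as a retained intron and gave 4.19, 4.38 and 2.46 TPM, or 11.9 ± 3.33%. YTHDC2-204, of the same class, gave 2.73 ± 0.287 TPM. The leading transcript was highest and the second entry lowest in replicate 3, while the gene sum of YTHDC2 spanned less than 1 TPM. Without replicate 1, YTHDC2-203 missed the threshold for a level above 1 TPM (limma adjusted p = 0.0670), as it did without replicate 2 (limma adjusted p = 0.0615).

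Entries other than complete coding transcripts held a larger share of the YTHDC genes than of the YTHDF genes. This share of the TPM was 36.8 ± 0.652% in YTHDC1 and 26.9 ± 2.20% in YTHDC2 (SD, n = 3). It was 8.02 ± 4.16% in YTHDF3, 7.59 ± 1.41% in YTHDF2 and 0 in YTHDF1, where both entries are annotated as complete coding transcripts. YTHDF1-201 is counted among these although its coding sequence is 156 bases long, and it held 8.08% of the YTHDF1 TPM. The ranges of the YTHDC and YTHDF genes did not overlap in any library. The median over 12573 protein-coding symbols with a mean of at least 1 TPM was 24.6%, so YTHDC1 stood above it, YTHDC2 near it and the YTHDF genes below it.

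In the authors' estimated counts, which rescale to the TPM of replicate 1, the same entries held less. Their TPM share in replicate 1 was 36.6% in YTHDC1, 28.7% in YTHDC2, 7.15% in YTHDF3 and 6.04% in YTHDF2. In the column of estimated counts the share was 6.33% in YTHDC1, 9.58% in YTHDC2, 0.988% in YTHDF3 and 3.48% in YTHDF2, with a median of 7.78% over the same symbols. In that column YTHDC2 was above YTHDC1, the reverse of their order in TPM. Retained-intron entries alone held 24.9% of the mean TPM of YTHDC2, 15.7% of YTHDC1 and 6.14% of YTHDF3. The upper quartile over all symbols was 11.0% and their median 1.13%.

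**Figure D4:**
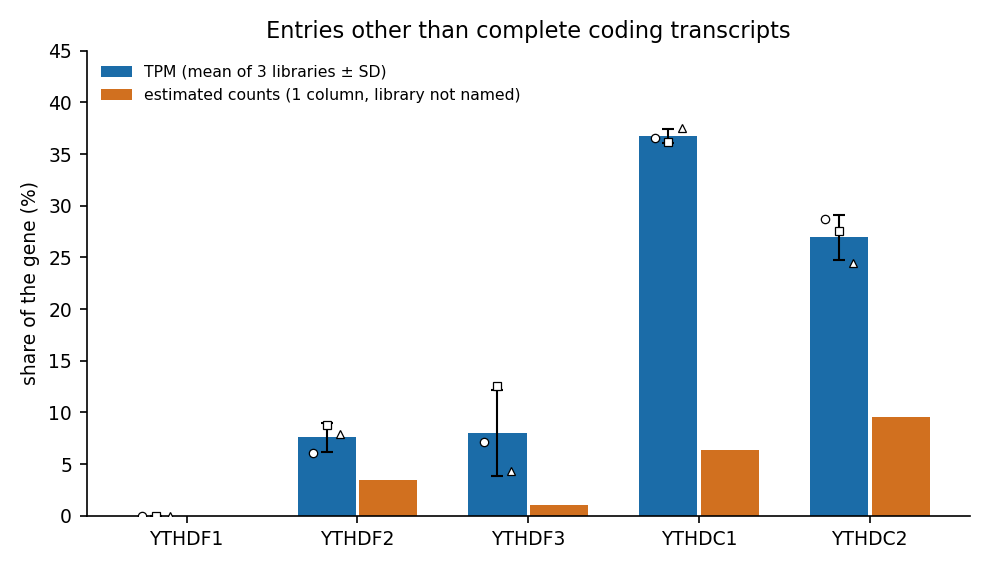
Share of each gene (vertical axis, %) in entries other than complete coding transcripts. Blue bars give the mean TPM share with 1 SD and the 3 libraries as white points (circle, square and triangle for replicates 1, 2 and 3). Orange bars give the share of the estimated counts, a single column that rescales to the TPM of replicate 1. YTHDC1 is at 36.8% of TPM and 6.33% of estimated counts.

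Paralogs and pseudogenes can share reads, so the transcripts were searched for identical stretches of 31 bases. No such stretch was shared between any of the 5 YTH genes. The longest identical run between leading transcripts was 20 bases, in YTHDF1 and YTHDF2, and 17 bases between YTHDF3 and each of them. Of the 3964 stretches of YTHDF2, 598 (15.1%) were also in YTHDF2P1, a processed pseudogene at chr14:39215065-39216335. That pseudogene was listed at 0.0410 TPM in replicate 1 and at 0 in replicates 2 and 3, so it drew almost none of the estimate. YTHDF1 shared 1 stretch with YTHDF1P1, a processed pseudogene at chr5:97368776-97370421 that was listed at 0 in all libraries. For the other 3 genes between 0.876% and 1.52% of stretches occurred in another symbol.

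The letters GGACT, a form of the sequence in which m6A is placed, were counted on the transcript strand of each leading transcript. They occurred 3 times in YTHDF2-201, or 1.03 per kb, 4 times in YTHDC2-201 (0.633 per kb) and 2 times in YTHDF3-205 (0.387 per kb). YTHDF1-202 and YTHDC1-202 held 1 each. Of 13246 leading transcripts of genes with a mean of at least 1 TPM, 83.3% held these letters, at a median density of 0.937 per kb and with quartiles of 0.463 and 1.48. YTHDF2 was near the median and the other 4 genes below it. Methylation was not measured in these libraries, and a match of letters is not a methylated site.

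Genes that act before, beside or after the readers were taken from lists, which give the levels a scale. The counts below are of calls above 1 TPM, the outcome for 58.5% of all genes tested, with the median TPM of each list beside the 4.29 TPM over all genes tested. With all entries summed, 22 of the 84 list genes were higher in mean than YTHDF2, 33 than YTHDC1, 54 than YTHDF1, 55 than YTHDF3 and 59 than YTHDC2.

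Transcripts of the writer complex and of the other listed methyltransferase and demethylase genes were all detected, while protein was not measured. All 8 genes of the writer complex were above 1 TPM, with a list median of 38.7 TPM. WTAP, the adaptor that holds the catalytic pair in nuclear speckles, was the highest at 94.2 ± 0.878 TPM, and RBM15, an RNA-binding subunit, the lowest at 20.9 ± 0.267 TPM (SD, n = 3). The catalytic METTL3 was at 77.4 ± 0.415 TPM and its partner METTL14 at 41.3 ± 2.80 TPM (SD, n = 3). YTHDF2 was thus above every gene of this list, and YTHDC1, summed over all entries, above all but WTAP. The complete coding transcripts of YTHDC1, at 53.3 TPM, were below METTL3 summed over all entries. That sets a part of YTHDC1 beside the whole of METTL3, so it does not rank the genes on a like sum.

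All 7 other methyltransferase and demethylase genes were above 1 TPM, with a median of 54.4 TPM. They ran up to TRMT112, a cofactor shared by several methyltransferases, at 455 ± 10.2 TPM, and down to ZCCHC4, which methylates 28S ribosomal RNA, at 6.69 ± 0.488 TPM (SD, n = 3). The demethylase ALKBH5 was at 96.1 ± 0.593 TPM and FTO at 54.4 ± 3.08 TPM (SD, n = 3).

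Genes for other proteins reported to bind methylated RNA ran to higher levels than the YTH genes. All 11 were above 1 TPM, with a median of 107 TPM, close to YTHDF2. HNRNPA2B1, an abundant nuclear RNA-binding protein, was at 2033 ± 27.7 TPM, and the lowest, IGF2BP3, at 29.2 ± 1.43 TPM (SD, n = 3). IGF2BP3 was the only one of them below YTHDC2 summed over all entries. The complete coding transcripts of YTHDC2, at 22.6 TPM, were below IGF2BP3 summed over all entries, which is again a part beside a whole.

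Transcripts of the decay machinery that the YTHDF readers work with were also detected. All 14 CCR4-NOT and PAN deadenylase genes were above 1 TPM, with a median of 49.8 TPM. They ran up to CNOT1, the scaffold that YTHDF2 contacts, at 158 ± 5.90 TPM, and down to CNOT4 at 14.7 ± 0.341 TPM (SD, n = 3). All 11 genes of RNase P/MRP and RIDA were above 1 TPM, with a median of 49.3 TPM. In this list, named for the route in which RIDA bridges YTHDF2 to the endonuclease, POP7 was highest at 147 ± 1.83 TPM and RPP25 lowest at 17.8 ± 1.09 TPM (SD, n = 3). RIDA itself, at 49.3 ± 1.53 TPM, was below YTHDF2 in every library.

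All 13 decapping, UPF1 and stress granule genes were above 1 TPM, with a median of 68.4 TPM. CAPRIN1, a stress granule protein, was highest at 204 ± 7.56 TPM and XRN1, the 5′ to 3′ exonuclease that also binds YTHDC2, lowest at 11.4 ± 0.941 TPM (SD, n = 3). XRN1 was below all 5 YTH genes.

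Transcripts of most listed partners of the YTHDC readers were detected. Of 12 nuclear partners of YTHDC1, 11 were above 1 TPM and 1 was below, with a median of 179.6 TPM. SRSF3, the splicing factor that YTHDC1 recruits, was at 976 ± 3.32 TPM (SD, n = 3). KHDRBS2, a paralog of the splicing regulator KHDRBS1, was listed at 0 in replicates 1 and 2 and at 0.0210 TPM in replicate 3. Of 9 partners and helicase relatives of YTHDC2, 7 were above 1 TPM, 1 was below and 1 was listed at 0, with a median of 27.8 TPM over the 8 with a value. DHX9, a nuclear helicase of the same family, was at 269.7 ± 5.12 TPM (SD, n = 3).

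The meiotic members of that list were low. MEIOC, the partner of YTHDC2 in mouse germ cells, gave 1.50, 1.62 and 1.32 TPM in replicates 1, 2 and 3 and was called above 1 TPM, though not without replicate 1 (limma adjusted p = 0.0510). TDRD9, a germ-line helicase, gave 0.298, 0.0182 and 0 TPM and was called below it. RBM46, a germ-cell RNA-binding protein, was listed at 0 in all 3 libraries. YTHDC2 was therefore present at 30.9 TPM where these 3 genes were near or below 1 TPM.

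**Figure D5:**
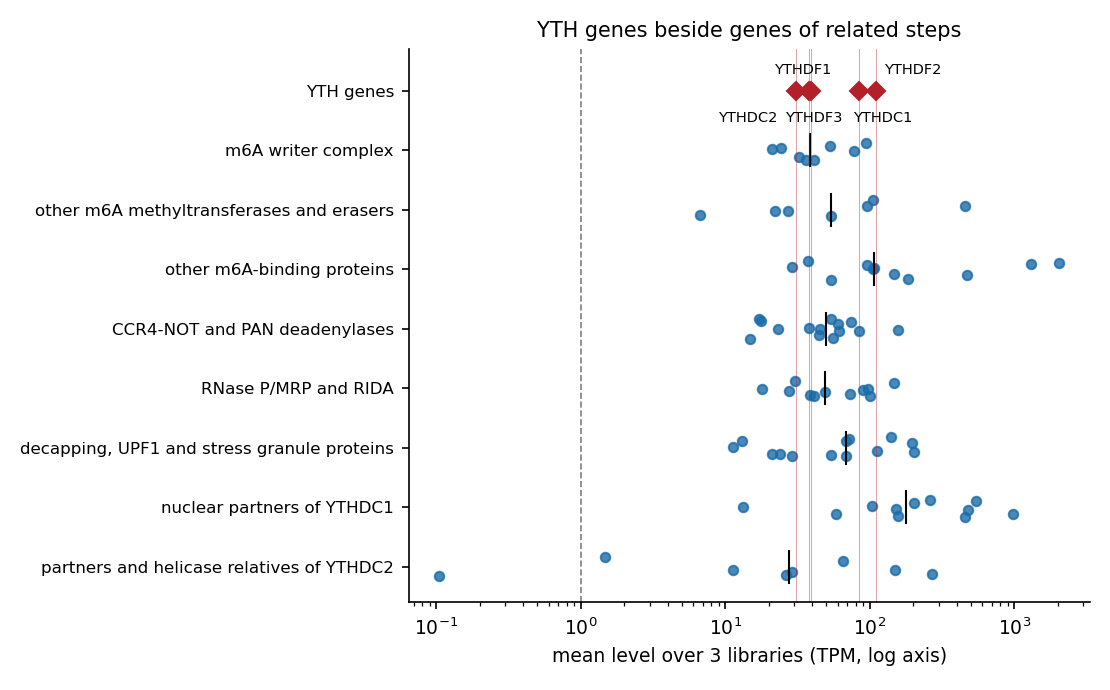
Mean TPM over 3 libraries (horizontal log axis) of the 5 YTH genes (red diamonds) and of the genes of 8 lists (blue points, spread vertically at random), with black ticks at list medians and a dashed line at 1 TPM. KHDRBS2 at 0.0070 TPM and RBM46, listed at 0, are not drawn; the median tick of the YTHDC2 list leaves out RBM46.

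For each YTH gene, the 2 list genes with the smallest Euclidean distance of log2(TPM + 0.01) over the 3 libraries were found. This measure finds genes of like level, since all libraries are of 1 condition. It was taken on sums over all entries only. On complete coding transcripts YTHDC1, for example, was at 53.3 TPM, and no distances were taken on that sum. YTHDF2 was nearest to the m6A-binding proteins IGF2BP1 (107 ± 2.15 TPM, distance 0.0846) and FXR1 (105 ± 2.75 TPM, distance 0.105). YTHDC1 was nearest to the deadenylase CNOT7 (84.6 ± 3.97 TPM, distance 0.0646) and to POP5 (89.2 ± 1.85 TPM, distance 0.162). YTHDF1 and YTHDF3 both had the RNase P/MRP subunits RPP40 (38.5 ± 1.53 TPM) first and RPP14 (41.2 ± 0.656 TPM) second, at distances of 0.102 and 0.129 for YTHDF1 and 0.117 and 0.209 for YTHDF3. YTHDC2 was nearest to RBM15B (32.5 ± 0.223 TPM, distance 0.121) and RPP38 (30.2 ± 1.55 TPM, distance 0.133).

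Markers of the cell line and of other cell types were read by the same rule. All 8 genes of a list for HEK293T were above 1 TPM, between PAX2 at 1.57 TPM and VIM at 401 TPM. Of the markers of other cell types reported here, 5 were below 1 TPM and 4 were listed at 0. Of all genes tested, 58.5% were above 1 TPM and 33.9% below it, and 13890 of 35880 symbols were listed at 0. These calls are therefore common outcomes and do not establish the identity of the line.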

How the data were processed

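Per the submitters' processing notes, the authors used kallisto and hg38. Not given in the sources used here are kallisto's version, its strand setting and its transcript set. The deposited table holds, per the file headers, TPM per transcript for each of 3 libraries, their mean, lengths, and 1 column of estimated counts that names no library. Those deposited estimated counts summed to 33184885 and, divided by effective length and rescaled, equalled the TPM of replicate 1 within 1.08e-05. TPM keeps no depth, so no counting interval is given and no count test was run.

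TPM was summed by symbol. Of 185299 entries, 90.5% matched GENCODE release 29 by identifier, for types, exons and sequence. Levels and within-library differences of log2(TPM + 0.01) were tested, two-sided, with limma 3.58.1 (R 4.3.3, mean-variance trend) over all genes or entries above 0 in at least 1 library, with Benjamini-Hochberg adjustment and a threshold of 0.05. A fold change is on that log scale, and 95% intervals are limma's. The scripts were tested on simulated data. Tables were made with Python 3.11.15 and pandas 2.3.3.

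The members and lists were chosen with earlier results of these data known. Named were the 5 genes, their first and second transcripts and others of at least 10%, the highest and lowest gene of each list, the 2 nearest list genes, METTL3, METTL14, FTO and ALKBH5. Other transcripts, RIDA, MEIOC and TDRD9 were named after their values were seen. In the list of other cell types, 1 marker is not reported here. Alternatives covered pseudocounts, levels, scaling, filters, the trend, the transcripts summed and each library left out.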

Additional observations from a re-analysis of the deposited data

How the results depend on the processing

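No paired analysis was possible because the libraries form 1 group. The call of each YTH gene above 1 TPM, and the count of each list above 1 TPM within 1.5 times, held under the other pseudocounts (0.1 and 1), levels (0.5, 2 and 10 TPM), scalings, the filter and each library left out. Leaving out a library changed none of the pair calls; beyond the YTH genes it lost MEIOC without replicate 1, and among entries YTHDC2-203 without replicate 1 or 2. The sums over complete coding transcripts and the merging of identical entries were chosen after seeing the data.

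At a level of 10 TPM the number of entries called above was 1 for YTHDF1, YTHDF2, YTHDF3 and YTHDC2 and 4 for YTHDC1. At 1 TPM it was 2 for YTHDF1, 4 for YTHDF2, 3 for YTHDF3, 8 for YTHDC1 and 3 for YTHDC2. Merging identical entries left 5 for YTHDC1.

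YTHDF1 minus YTHDF3 passed the threshold with protein-coding entries (0.15), complete coding transcripts (0.17) and the leading transcript, merged or not (0.71), in log2. With the leading transcript alone, YTHDF1 minus YTHDC1 reversed to 1.38 (0.38 merged), YTHDF3 minus YTHDC1 to 0.67, YTHDC1 minus YTHDC2 to -0.68 and YTHDF3 minus YTHDC2 to -0.012 (limma adjusted p = 0.701 unmerged). The YTHDC1 values unmerged use 1 entry of each identical pair, at 13.9 TPM, so part of those reversals follows from how the entries are listed.

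With protein-coding entries the share of the 5-gene sum was 14.5% for YTHDF1, 37.9% for YTHDF2, 26.2% for YTHDC1 and 8.33% for YTHDC2. With complete coding transcripts it was 15.7% for YTHDF1, 40.3% for YTHDF2, 13.9% for YTHDF3, 21.2% for YTHDC1 and 8.98% for YTHDC2. Within protein-coding entries the transcript shares were 84.3% for YTHDF2-201, 62.4% for YTHDF3-205, 39.2% for YTHDC1-202, 34.6% for YTHDC1-207, 20.2% for YTHDC1-206 and 98.6% for YTHDC2-201.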
